A study of Rattus norvegicus with 9 samples.

Results

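Ion channel subunits of the rat right ventricle were followed through 117 genes, those of voltage-gated sodium and calcium channels, of the HCN channels and of potassium channels of every kind. They were chosen by gene symbol: symbols that begin with Kcn (potassium channels), with Scn, a number and a or b (voltage-gated sodium channels), with Hcn (channels opened by hyperpolarization and cyclic nucleotides) or with Cacn (voltage-gated calcium channels). Of the 121 symbols of this form, Kcna5, Kcnj3, Kcnj5 and Cacna1c were set aside, which left 117 of the 14506 genes that had a feature with 1 gene symbol. Each gene was read from 1 feature, the brightest over all 9 arrays.

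Male SD (Sprague-Dawley) rats had either a sham operation or pulmonary artery banding (PAB), a constriction that loads the right ventricle with pressure. After 4 weeks the banded hearts were sorted by the share of fibrotic tissue area, the F- group lying below 6.5% and the F+ group above it. Whole right ventricle was hybridized to Affymetrix rat gene arrays, 3 for each of the 3 groups, and the labels name no transgene or drug in any of them. The ages of these animals are not given in the sources used here, nor whether the 3 arrays of a group are 3 animals. The methods speak of hybridizations in triplicate, so the p-values below measure the spread between arrays, which may be technical, and the number of arrays limits their precision.

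An action potential of a ventricular myocyte starts when sodium channels open, is held up by calcium entry and ends when potassium channels carry current outward. Pore-forming subunits make the channel itself, and auxiliary subunits set where it sits and how it opens. T-type calcium channels and HCN channels are best known from pacemaker and conduction cells, and hypertrophied ventricles are known to express them again, while outward potassium currents are known to decline with hypertrophy.

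The deposited values ran from 1.0 to 190.4, with array medians of 33.4 to 33.9, and no source used here states their scale. A difference below is taken between group means of log2 values and is valid for the scale as deposited. All 10 cardiomyocyte markers lay above the median of all genes, with sums between 1508 and 1562 on each array. Sham array 2 stood apart by some genes of atrial myocytes: Bmp10 was 85.8 there against 18.4 and 18.7 on the other sham arrays. Sln was 115.1 against 43.9 and 53.8, and Myl7 was 149.9 against 88.5 and 92.2. Other atrial markers did not stand apart there: Dkk3 was 83.9 against 89.4 and 85.5, and Pam was 146.7 against 140.0 and 144.9. Nppa, which encodes atrial natriuretic peptide, was high on sham array 2 (135.8), on F- array 1 (155.6) and on all F+ arrays (134.3 to 149.5), and lay between 37.0 and 59.7 on the other 4 arrays. In the F+ group against the F- group, values were higher for 7 of 7 macrophage, 8 of 8 smooth muscle and pericyte, 4 of 7 fibroblast, 5 of 6 endothelial, 8 of 9 neuron, 3 of 5 Schwann cell, 4 of 6 atrial, 5 of 6 conduction system, 2 of 5 skeletal muscle and 4 of 5 adipocyte markers, and for 0 of 10 cardiomyocyte markers. The macrophage markers summed to 405.7 to 429.3 on the sham arrays, to 490.4, 391.1 and 399.5 on F- arrays 1, 2 and 3, and lay between 491.2 and 526.2 in the F+ group. The part that such cells have in the channel values was not tested. In whole tissue, fewer cells of a type and less RNA per cell cannot be told apart.

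A gene was called bright when its mean log2 value over the arrays reached the median of all genes, a deposited value of 40.6, and dim otherwise. By this measure 32 channel genes were bright and 85 dim, where the cut divides all genes evenly. The bright genes were 8 of 34 Kv pore-forming subunits, 4 of 13 inward rectifiers (Kir), 3 of 11 background potassium channels (K2P), 2 of 6 potassium channels activated by calcium or sodium, 3 of 16 potassium channel auxiliary subunits, 2 of 3 HCN channels, 2 of 8 sodium channel pores, 1 of 3 sodium channel beta subunits, 3 of 8 calcium channel pores and 4 of 15 calcium channel auxiliary subunits. Kcna3 (40.3) was the last gene below the cut and Kcnk18 (41.14) the first above it. The cut uses all groups, so a gene that differs between them can cross it: the geometric mean of Cacna1h was 43.04 over 9 arrays but 40.43 over the sham and F- arrays, where that of Kcnk2 was 39.46 and 42.77. Brightness also depends on the probes of a feature, so levels are compared between arrays and not between genes.

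Fibrotic and non-fibrotic banded hearts were compared to see which channel genes differ with fibrosis once the artery is banded. The 3 bright calcium channel pores, Cacna1h, Cacna1g and Cacna1a, had higher values in the F+ group, and 6 bright genes of other families, Cacng6, Scn4b, Scn1a, Hcn4, Kcnn3 and Kcnn1, had lower ones. None of the 117 genes passed limma after Benjamini-Hochberg adjustment over all 29215 features (lowest adjusted p = 0.567), where 1 feature did (0.00342%). At an unadjusted p under 0.05 the count was 15 of 117 channel genes, 7 higher and 8 lower, and the background over all genes was 8.47%. Of the bright channel genes 9 of 32 (28.1%) were past this threshold, where the background of bright genes was 10.1%. With the cut taken from the sham arrays alone, Cacna1h was dim and Kcnk2 and Kcna3 were bright, and 9 of 33 bright genes (27.3%) were past it, against 10.1%. Of the dim ones at the cut over 9 arrays 6 of 85 (7.06%) were, near the background of 6.87%. These counts leaned on single arrays: without F- array 3 the count was 8 and without F+ array 3 it was 9, and among bright genes it was 5 without F- array 2 and 4 without F- array 3 or without F+ array 2. The 3 arrays of both groups did not overlap for 12 channel genes (10.3%), 5 higher and 7 lower, where the background over all genes was 11.7%. Of these, 8 were among the 32 bright genes, a larger share than the background of 16.6%. The other 4 were among the 85 dim genes (4.71%), against a background of 6.85%. A two-sided exact permutation test of 3 arrays against 3 cannot go below 0.1.

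**Figure D1:**
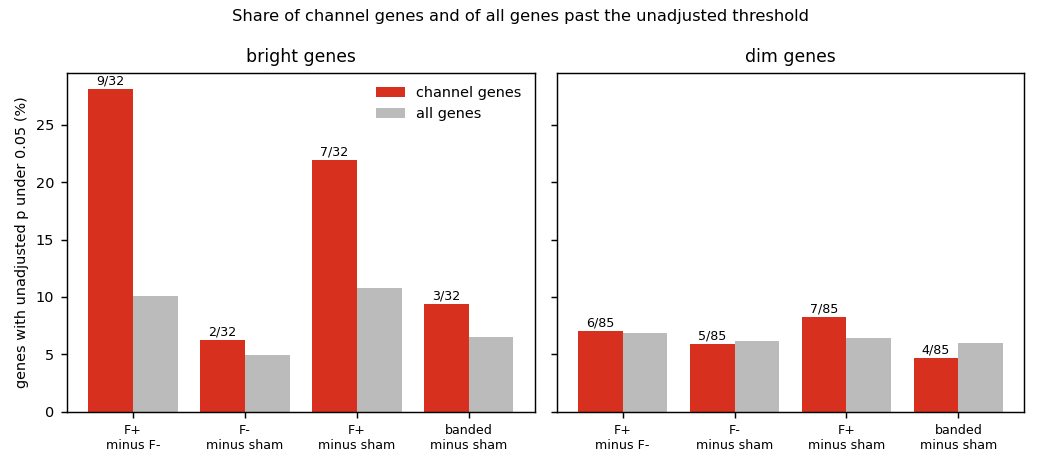
Share of genes with an unadjusted limma p under 0.05 (vertical axis, percent) in each comparison, for channel genes (red, with counts) and for all genes (grey), apart for bright and dim genes. Bright channel genes reach 28.1% between the F+ and F- groups, where all bright genes reach 10.1%, and dim channel genes lie near the share of all dim genes.

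The bright channel genes were also more variable between arrays of the same group. Their median SD of log2 values within groups was 0.079, against 0.0418 for all bright genes. The 2 sets were not matched in level. Among all genes the median SD was 0.0479 in the bin just above the cut and 0.0326 in the highest of 20 bins. For dim channel genes it was 0.0698, against 0.0715 for all dim genes. The median size of the difference between F+ and F- among bright channel genes was 0.0794, against 0.033 for all bright genes. With its direction kept, the median was -0.022 for bright channel genes and -0.006 for all bright genes, and 0.000783 and 0.00993 for the dim ones. The signs were thus mixed, with 12 bright channel genes higher and 20 lower. Of the dim channel genes 24 of 85 (28.2%) held the same value on 4 or more of the 9 arrays, as did 32.3% of all dim genes.

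**Figure D2:**
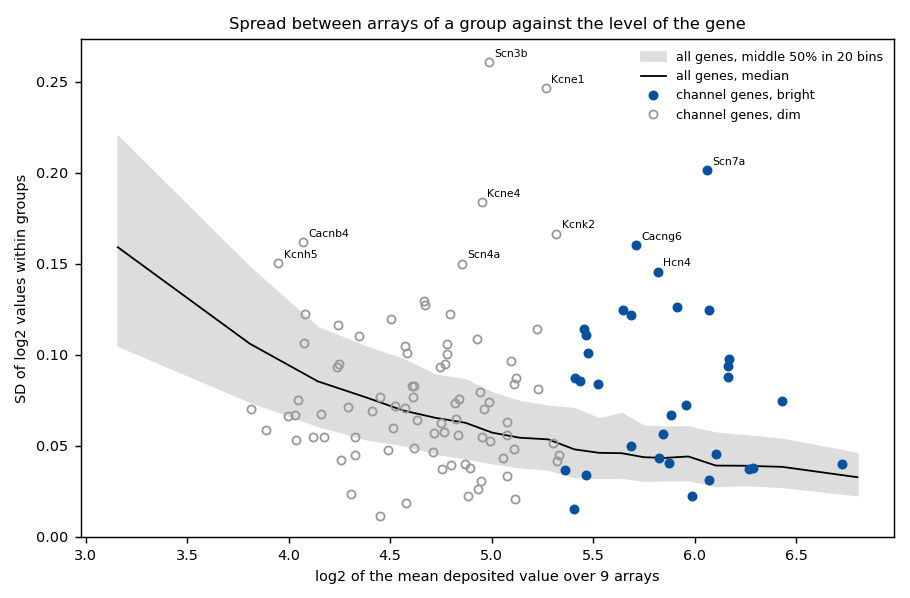
SD of log2 values within groups (vertical axis) against the log2 mean deposited value over 9 arrays (horizontal axis) for bright (filled) and dim (open) channel genes, with the median and the middle 50% of all genes in 20 bins of level. Bright channel genes lie around 0.079, above the median of all bright genes of 0.0418, and Scn3b, Kcne1 and Scn7a lie highest.

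Of the calcium channel pores, Cacna1h, Cacna1g and Cacna1a were called bright and had higher values in the F+ group. Cacna1h reached the bright cut of 40.6 only with the F+ arrays counted, as its geometric mean was 40.43 over the sham and F- arrays. Cacna1c had been set aside, so these are not all calcium channel pores that could be bright. Cacna1h, a pore of T-type channels, which open at low voltage, had values of 39.6, 42.7 and 38.1 on sham arrays 1, 2 and 3, of 42.6, 39.6 and 40.2 on the F- arrays, then 46.8, 46.6 and 53.2 on the F+ arrays. All F+ arrays were above all others, and the F- arrays lay among the sham arrays. The limma difference of F+ from F- was 0.26, with a standard error of 0.064 and an adjusted p of 0.567, and the mean was 48.9 ± 3.75 (SD, n = 3) against 40.8 ± 1.59 (SD, n = 3). Against the sham group it was 0.28 (adjusted p = 0.600). With other settings on the log2 scale, and with any array left out, the difference of F+ from F- was 0.196 to 0.291.

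Cacna1g, the other bright T-type pore, gave 40.8, 46.6 and 40.8 on the sham arrays, 46.5, 39.2 and 37.8 on the F- arrays, then 46.6, 47.6 and 48.9 on the F+ arrays. The F+ arrays were close together, and sham array 2 and F- array 1 reached their lower edge. The difference was 0.22 (standard error 0.084, adjusted p = 0.669), and without sham array 2 and F- array 1 it was 0.31. Cacna1a, the pore of P/Q-type channels known from nerve terminals, gave 52.6, 47.2 and 44.4 on the F+ arrays, then 46.3, 40.6 and 38.9 on the F- arrays, which overlapped. Its difference was 0.20 (standard error 0.082, adjusted p = 0.671). The 5 dim pores (Cacna1b, Cacna1d, Cacna1e, Cacna1f and Cacna1i) differed by -0.045 to 0.018, and Cacna1d, an L-type pore of pacemaker cells, was 24.7, 25.3 and 23.2 on the F- arrays, then 23.7, 24.7 and 24.8 on the F+ arrays.

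Among calcium channel auxiliary subunits, Cacng6, a gamma subunit, had the largest difference of all 117 genes between F+ and F-. It was 55.3, 60.0 and 60.6 on the sham arrays, 44.6, 60.8 and 62.1 on the F- arrays, then 42.3, 42.7 and 42.4 on the F+ arrays. The F+ arrays were nearly equal and below all others, while F- array 1 lay near them and apart from its own group. The difference was -0.38 (95% confidence interval -0.65 to -0.11, adjusted p = 0.624), and -0.46 against the sham group (adjusted p = 0.600). Without F- array 1 it was -0.53, with an adjusted p of 0.0545, the lowest of any channel gene under any setting (0.0545 to 0.901 for this gene). Cacna2d3, a dim alpha2-delta subunit, had 31.4, 31.6 and 29.4 on the F+ arrays, then 24.3, 28.5 and 26.8 on the F- arrays, a difference of 0.22 (adjusted p = 0.594) with no overlap. Cacnb2 and Cacna2d1, the beta and alpha2-delta subunits best known from ventricular L-type channels, differed by -0.036 and -0.028, and no other auxiliary subunit had an unadjusted p under 0.05.

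**Figure D3:**
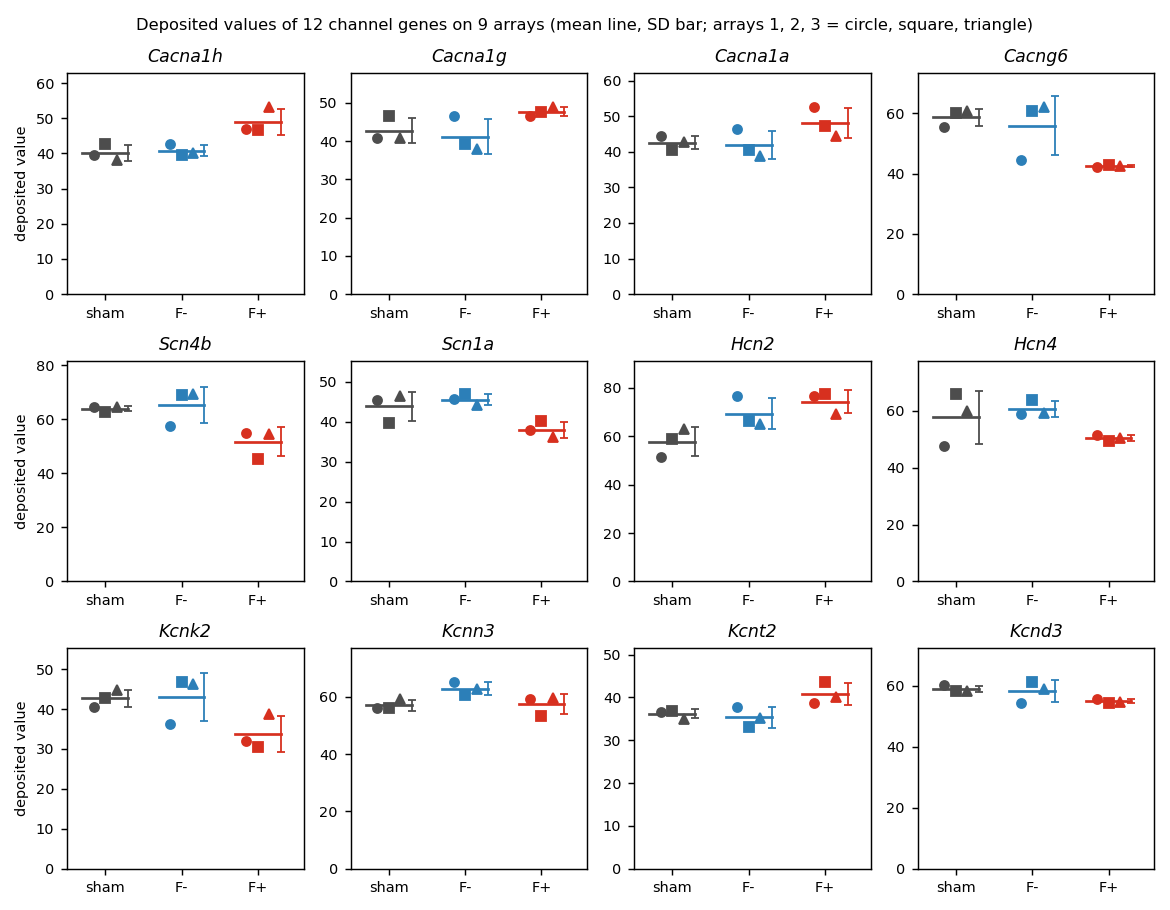
Deposited values (vertical axis, from 0) of 12 channel genes by array for sham, F- and F+, with lines at the means, bars for the SD and a symbol for each array number (1 circle, 2 square, 3 triangle). Cacna1h lies higher on all F+ arrays (46.6 to 53.2) than on any other, and Cacng6 lies lower on them (42.3 to 42.7), with F- array 1 near at 44.6.

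Scn4b and Scn1a, bright sodium channel genes, had lower values in the F+ group. Scn4b encodes a beta subunit that joins the cardiac sodium channel, and its values were 64.3, 62.8 and 64.4 on the sham arrays, 57.6, 68.9 and 69.2 on the F- arrays, then 55.0, 45.4 and 54.5 on the F+ arrays. All F+ arrays lay below all others, with F+ array 2 lowest. The difference between F+ and F- was -0.34 (standard error 0.093, adjusted p = 0.601), from means of 51.6 ± 5.40 and 65.2 ± 6.61 (SD, n = 3 each). Scn1a, a pore best known from the brain, gave 37.9, 40.1 and 36.1 on the F+ arrays, then 45.6, 46.9 and 44.1 on the F- arrays, a difference of -0.26 (adjusted p = 0.567). The groups did not overlap, but sham array 2 (39.7) lay among the F+ arrays. None of 9 neuron and 5 Schwann cell markers was bright, with neuron sums of 233.1 to 254.2 over all arrays.

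The other sodium channel genes had an unadjusted p above 0.05 between F+ and F-. Scn7a, which encodes a salt-sensing relative of the voltage-gated pores, was 68.3, 46.9 and 68.6 on the F+ arrays, then 62.2, 70.4 and 64.2 on the F- arrays, where the sham arrays gave 70.6, 80.3 and 69.1. All F+ arrays lay below all sham arrays, with F+ array 2 far below, and the difference between F+ and sham was -0.28, or -0.0962 without F+ array 2. Scn2b, a dim beta subunit with lower values in F+ than in sham, is described with that comparison. The 6 dim pores (Scn2a, Scn3a, Scn4a, Scn8a, Scn10a and Scn11a) differed by -0.015 to 0.12. Scn3b, a dim beta subunit, stood out by 1 array, with 47.0 on F- array 1 and 26.2 to 34.2 on the other 8.

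HCN channels carry the pacemaker current, and the 2 bright ones had different patterns over the groups. Hcn4, the main pacemaker channel of the sinus node, had values of 51.7, 49.4 and 50.4 on the F+ arrays, of 58.9, 63.9 and 59.4 on the F- arrays and of 47.6, 65.9 and 60.0 on the sham arrays. The F+ arrays lay below the F- arrays, while the sham arrays spread across both. The difference between F+ and F- was -0.27 (standard error 0.11, adjusted p = 0.671). Hcn2, the more abundant HCN gene of ventricle, gave 51.4, 58.8 and 63.0 on the sham arrays, 76.5, 66.3 and 65.2 on the F- arrays, then 76.5, 77.3 and 69.0 on the F+ arrays. All banded arrays were above all sham arrays, and the F- and F+ arrays overlapped. Its difference was 0.37 between F+ and sham (95% confidence interval 0.15 to 0.58, adjusted p = 0.600), 0.27 between F- and sham (adjusted p = 0.743) and 0.10 between F+ and F- (adjusted p = 0.804). Hcn3, the dim member, was 32.8, 33.1 and 31.1 on the F- arrays, then 34.7, 32.5 and 34.1 on the F+ arrays.

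Of the 80 genes of potassium channels 7 (8.75%) were past the unadjusted threshold between F+ and F-, near the 8.47% of all genes. Kcnk2, a K2P channel opened by stretch, had the largest difference among them, with 40.5, 42.9 and 44.8 on the sham arrays, 36.2, 46.9 and 46.3 on the F- arrays, then 31.9, 30.6 and 38.8 on the F+ arrays. The F+ arrays were below all sham arrays, and F- array 1 lay among them. The difference was -0.35 both against F- (standard error 0.12, adjusted p = 0.639) and against sham (adjusted p = 0.633). It is just below the bright cut, at a geometric mean of 39.46. Kcnk6, another dim K2P gene, was 39.5, 41.7 and 42.6 on the F+ arrays, then 38.7, 36.6 and 39.5 on the F- arrays, a difference of 0.11. The 3 bright K2P genes, Kcnk3, Kcnk13 and Kcnk18, differed by -0.017 to 0.0069.

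Of the 6 genes of potassium channels opened by calcium or sodium, 3 were past the unadjusted threshold between F+ and F-. The background over all genes was 8.47%, and 0 of the 6 passed after adjustment. Kcnn3, a small-conductance calcium-activated channel, was 56.0, 55.9 and 59.2 on the sham arrays, 65.3, 60.5 and 62.8 on the F- arrays, then 59.2, 53.3 and 59.5 on the F+ arrays. It was highest in the F- group, whose arrays lay above all others, while the F+ arrays lay across the sham range. The difference was 0.14 between F- and sham and -0.13 between F+ and F- (adjusted p = 0.743 and 0.669), and the 2 differences share the F- arrays. Without sham array 2 and F- array 1 they were 0.0983 and -0.106, and without F+ array 2 the difference between F+ and F- was -0.0824. Each had an unadjusted p under 0.05 in 15 of 20 fits, which are the one described and 19 alternatives. Kcnn1, of the same kind, was 44.2, 41.3 and 42.2 on the F+ arrays, below the 44.3 to 46.0 of the other 6. Its difference was -0.077 against F- and -0.075 against sham, with an unadjusted p under 0.05 in 9 and 8 of 20 fits (up to 0.133 and 0.145). Kcnt2, a dim sodium-activated channel, gave 38.6, 43.7 and 40.1 on the F+ arrays, above the 33.0 to 37.8 of the other 6, with a difference of 0.21 against F- (adjusted p = 0.618). Kcnma1, the large-conductance channel of smooth muscle, differed by 0.026, and its bright auxiliary subunit Kcnmb1 by 0.10 (52.3, 55.0 and 44.1 on the F- arrays; 53.2, 55.6 and 52.9 on the F+ arrays).

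The genes of the transient outward current, which ends the early peak of the rat action potential, were not past the unadjusted threshold in any comparison, though Kcnd3 was near it. Kcnd2, the main pore of this current in rat ventricle, was 69.0, 78.5 and 72.6 on the sham arrays, 66.1, 71.9 and 76.6 on the F- arrays, then 73.4, 69.1 and 68.4 on the F+ arrays, with full overlap. Kcnip2, its auxiliary subunit, was 101.9 to 110.5 on all 9 arrays. Kcnd3, a related pore, was 54.3 to 55.7 on the F+ arrays, against 58.2 to 60.1 on sham arrays, which did not overlap, while the F- arrays (54.2, 61.4 and 59.0) spanned both. The difference of Kcnd3 between F+ and sham was -0.10 (95% confidence interval -0.20 to 0.0037, adjusted p = 0.676). Its unadjusted p in limma was 0.0567, and under 0.05 in 9 of the 20 fits (0.00799 to 0.145). For Kcnd2 the difference was -0.060, with an interval of -0.21 to 0.093. Kcna4, a slow transient pore, differed by -0.10, and of Kcnd2, Kcnd3, Kcnip2, Kcna4 and Dpp6 the set of 5 held 1 gene with a higher mean in F+ than in sham.

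Delayed and inward rectifiers of the ventricle showed small differences as well. Kcnh2 and Kcnq1, the pores of the rapid and slow delayed rectifiers, differed by 0.047 and -0.042 between F+ and F-. Kcnj2 and Kcnj12, which set the resting potential, differed by -0.10 and -0.011, and Kcnj2 was 59.7, 58.0 and 60.2 on the F+ arrays, below the 61.8 to 65.6 of the sham arrays and overlapping the F- arrays (58.4, 67.9 and 64.9). Kcnj11 and Kcnj8, the pores of ATP-sensitive channels, differed by -0.021 and 0.024. Kcne1, the dim auxiliary subunit of Kcnq1, was 56.0 on F- array 1 and 32.0 to 44.5 on the other 8, and its difference between F- and sham of 0.28 became 0.0169 without sham array 2 and F- array 1. Of the 34 Kv pores, 20 were lower and 14 higher in the F+ group, and only Kcng4, a dim modulatory subunit, had an unadjusted p under 0.05 (32.7, 34.0 and 31.7 on the F- arrays; 35.4, 34.5 and 36.9 on the F+ arrays). Of the 13 Kir genes this held for the dim Kcnj13 (17.8, 16.8 and 16.6 against 16.6, 15.3 and 15.4, in the order F- and F+).

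**Figure D4:**
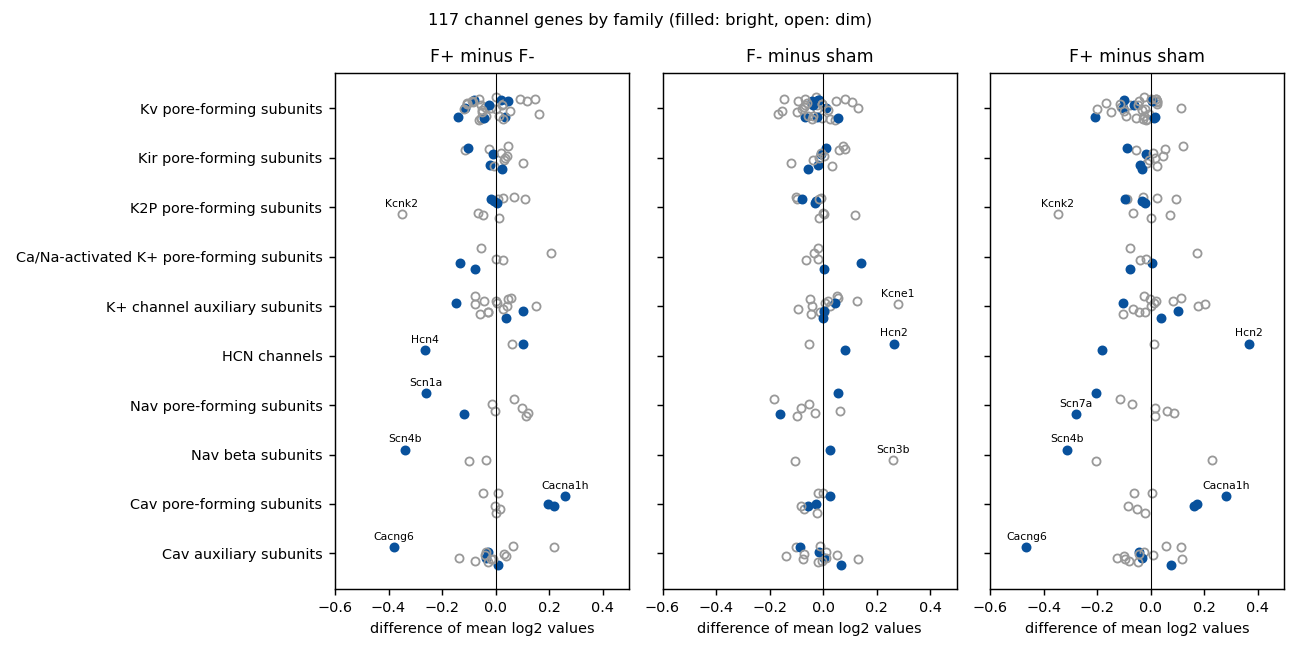
Difference of mean log2 values (horizontal axis) for 117 channel genes by family (vertical axis), in 3 comparisons, with bright genes filled and dim genes open. Between F+ and F-, Cacna1a, Cacna1g and Cacna1h lie at 0.20 to 0.26, where Cacna1h is bright only with the F+ arrays counted. Cacng6, Kcnk2, Scn4b, Hcn4 and Scn1a lie lowest, at -0.26 to -0.38.

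Promoter sequences are given for 4 of the genes with the largest differences, to show what lies just upstream of them. They come from RefSeq and the rat assembly GRCr8, in which 81 of the 117 genes had a promoter sequence, Cacna1h, Cacna1g and Hcn4 not among them. Each is the 120 bases before the annotated start, 5′ to 3′ on the strand of the gene, and capitals mark GC boxes (GGGCGG on either strand).
Hcn2, chr7:10639458-10639577, minus strand: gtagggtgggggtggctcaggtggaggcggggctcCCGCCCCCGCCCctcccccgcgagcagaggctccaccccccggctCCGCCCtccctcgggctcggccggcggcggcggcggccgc
Cacng6, chr1:74662754-74662873, minus strand: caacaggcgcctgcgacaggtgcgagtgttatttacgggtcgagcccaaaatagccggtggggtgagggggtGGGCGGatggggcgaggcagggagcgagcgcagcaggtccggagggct
Scn4b, chr8:54343753-54343872, plus strand: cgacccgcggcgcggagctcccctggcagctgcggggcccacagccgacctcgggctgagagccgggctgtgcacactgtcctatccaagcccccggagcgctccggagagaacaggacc
Kcnk2, chr13:103438643-103438762, minus strand: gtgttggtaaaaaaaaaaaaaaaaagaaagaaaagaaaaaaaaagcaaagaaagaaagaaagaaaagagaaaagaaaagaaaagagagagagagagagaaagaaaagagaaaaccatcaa
Hcn2, which was higher in banded hearts, has 3 GC boxes in this stretch, and Cacng6, which was lower in the F+ group, has 1. Scn4b and Kcnk2 have none of these letters there. The GC content of the 250 bases upstream was 71.6% for Hcn2 and Scn4b, 63.2% for Cacng6 and 45.6% for Kcnk2. Its median was 63.2% for the channel genes and 52.0% for all 27457 promoters. A GC box stood in 41 of 81 channel promoters of that length (50.6%) and in 32.4% of all, and a TATA box (TATAAA) in 3 (3.7%) and in 13.1%. The E-box letters CACGTG stood in 2.47% of channel promoters and in 5.79% of all. For the M-CAT letters CATTCC, read by factors of muscle genes, the shares were 9.88% and 11.8%. TTCAGCACC, the left part of the element bound by the neuronal gene repressor REST, was found in 2 channel promoters (2.47%) and in 0.317% of all. Both strands were searched for each. The 27457 promoters reach beyond the 14506 genes read from the arrays, so they are not a set matched to the channel genes. These matches describe letters only.

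Banding without fibrosis was compared with sham operation. Hcn2 and Kcnn3 were the bright channel genes with higher values in the F- group past the unadjusted threshold of 0.05, at which no bright gene was lower. The count was 7 of 117 channel genes, 4 higher and 3 lower, where the background was 5.58%. It was 2 of 32 bright genes (6.25%) against a background of 4.96%, and 5 of 85 dim genes (5.88%) against 6.19%. After adjustment 0 of 117 passed limma (lowest adjusted p = 0.743), as did 0.0% of all features. The arrays did not overlap for 9 channel genes (7.69%), where the background was 9.83%. Split by brightness, they were 3 of 32 bright genes (9.38%) against 12.4%, and 6 of 85 dim genes (7.06%) against 7.28%. Leaving out sham array 2 gave a count of 4, and leaving out F- array 1 or F- array 3 gave 2, and among bright genes it was 0 without sham array 1 or F- array 1 and 1 without F- array 3.

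The dim genes past this threshold differed by little in deposited units. Kcnk9, an acid-sensitive K2P channel, was 22.0, 22.0 and 20.5 on the sham arrays and 22.9, 22.7 and 24.4 on the F- arrays. Kcnip4, a Kv channel auxiliary subunit, was 17.2, 16.3 and 16.1 and then 17.2, 18.8 and 18.2. Both were also past it when all 6 banded arrays were set against sham. Lower values were found for Cacng8, Kcng4 and Kcnj10, with differences of -0.073, -0.095 and -0.12. Cacng8, a gamma subunit better known as a partner of glutamate receptors, was 30.8, 31.4 and 31.8 on the sham arrays and 29.1, 30.6 and 29.7 on the F- arrays.

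Fibrotic banded hearts were then compared with the same sham arrays. Cacna1h and Hcn2 had higher values among the bright genes, and Cacng6, Scn4b, Scn1a, Kcna2 and Kcnn1 lower ones. The count at an unadjusted p under 0.05 was 14 of 117, 3 higher and 11 lower, where the background was 8.57%. Bright genes gave 7 of 32 (21.9%) against a background of 10.8% (8 of 34 and 10.7% with the cut from the F- arrays alone), and dim genes 7 of 85 (8.24%) against 6.38%. After adjustment 0 passed limma (lowest adjusted p = 0.600), as did 0.0% of all features. The arrays did not overlap for 16 channel genes (13.7%), where the background was 15.1%, 5 of them higher and 11 lower. Split by brightness, they were 9 of 32 bright genes (28.1%) against 21.5%, and 7 of 85 dim genes (8.24%) against 8.77%. Leaving out sham array 3 gave a count of 8 (4 among bright genes), and leaving out F+ array 2 or F+ array 3 gave 9. F+ array 2 alone held the lowest value of 32 of the 117 channel genes, where it did so for 11.6% of all genes.

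Kcna2, a pore known from axons, was 74.8, 74.3 and 79.3 on the sham arrays, 65.9, 74.5 and 78.1 on the F- arrays, then 70.5, 64.6 and 62.8 on the F+ arrays. The F+ arrays were below the sham arrays, and the difference was -0.21 (standard error 0.070, adjusted p = 0.623). Scn2b was 24.6, 26.5 and 27.7 on the sham arrays and 22.0, 24.6 and 21.8 on the F+ arrays, which met at 24.6. Its difference was -0.20 (adjusted p = 0.616), with an unadjusted p under 0.05 in 19 of 19 fits. The other dim genes past the threshold with lower values were Kcna1, Kcnh8, Kcns1 and Kcnv2, Kv pores or modulatory subunits that differed by -0.11 to -0.20, and Kcnt2 was the dim gene with higher values, at 0.17. For the whole class, the median difference was -0.033 among bright channel genes against 0.002 among all bright genes, and -0.017 against -0.006 among dim ones.

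**Figure D5:**
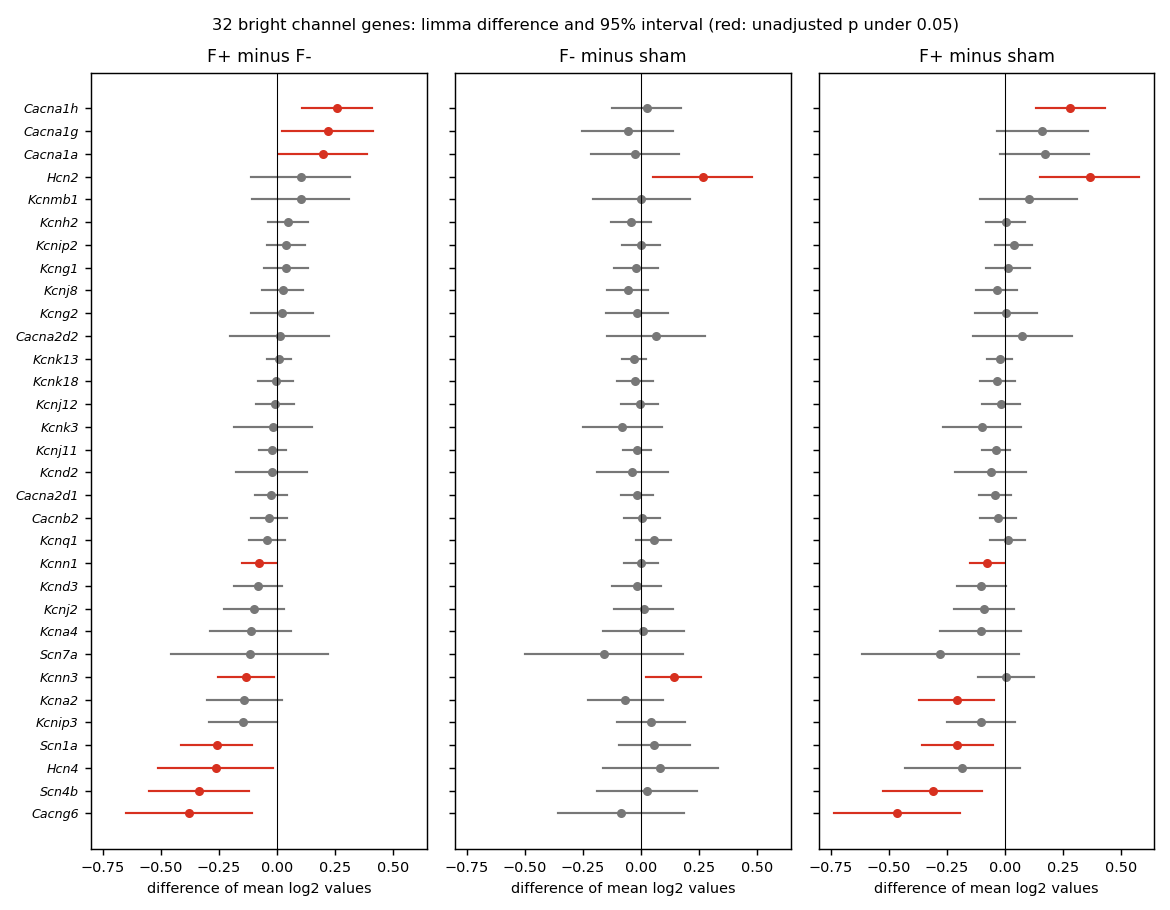
Limma difference of mean log2 values (point) and 95% confidence interval (line) for the 32 bright channel genes in 3 comparisons, ordered by the difference between F+ and F-, with an unadjusted p under 0.05 in red. In the F+ group the intervals of Cacna1h, Cacng6, Scn4b, Scn1a and Kcnn1 leave out 0 against both other groups, that of Kcnn1 narrowly, and that of Hcn2 does so against sham in both banded groups.

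With the banded groups pooled against sham, Hcn2 had the largest positive difference among the bright genes. The difference was 0.32 (standard error 0.079, adjusted p = 0.726), with 6 of 6 banded arrays above all sham arrays. Cacna1h differed by 0.15 and Cacng6 by -0.27, and among dim genes Scn2b and Cacng8 by -0.15 and -0.057. The count was 7 of 117 at an unadjusted p under 0.05, 4 higher and 3 lower, where the background was 6.24%. It was 3 of 32 bright genes (9.38%) against 6.49%, and 4 of 85 dim genes (4.71%) against 5.98%. After adjustment 0 passed limma, as did 0.0% of all features, and the arrays did not overlap for 4 channel genes (3.42%) against 2.98% of all genes. Without sham array 1 or F+ array 1 the count was 11, and without sham array 3 that of bright genes was 1. The median difference was -0.028 for bright channel genes and 0.005 for all bright genes, and -0.023 and -0.011 for dim ones.

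Other genes that anchor channels, join them or regulate them were read from a list of 28, of which 24 had a feature with 1 symbol. Of these 20 were bright. Between F+ and F-, 7 of 24 had an unadjusted p under 0.05, 2 higher and 5 lower, where the background was 8.47% of all genes and 10.1% of bright ones, and 0 passed after adjustment. Abcc9, the sulfonylurea receptor that joins the ATP-sensitive pores, was 108.0, 110.1 and 106.5 on the F- arrays, then 115.2, 113.8 and 116.2 on the F+ arrays, where the sham arrays were 112.6 to 116.5. Ank2 and Ank3, ankyrins that hold channels in the membrane, differed by -0.10 and -0.095. Irx5, a transcription factor known to repress Kcnd2, was 51.1 to 52.0 on the F- arrays, against 45.7 to 47.4 on the F+ arrays, with no overlap. Its sham arrays, at 47.7, 47.1 and 51.6, met the ranges of both. Akap9, which anchors the Kcnq1 channel complex, Fgf14, which binds sodium channels, and Gja5, a connexin, differed by -0.090, -0.12 and 0.11. Against sham, 2 of 24 were past the threshold in the F- group (Abcc9 lower, Cav3 higher; background 5.58%) and 2 of 24 in the F+ group (Ank2 and Akap9, both lower; background 8.57%).

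The difference between scales bears on sizes more than on order. Square roots of the deposited values ran from 1.0 to 13.8 with a median of 5.81, a range that log2 intensities often have, but no source used here says that the values are squares. Were they, the ratio of F+ to F- would be 1.52 for Cacna1h in place of 1.2, 0.523 for Cacng6 in place of 0.769 and 0.539 for Scn4b in place of 0.791. The ratio of F+ to sham for Hcn2 would be 2.03 in place of 1.29. For Nppa, the fold changes that the paper printed lie close to plain ratios of mean deposited values. The paper thus appears to have read the values as linear, though it does not state their scale.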

How the data were processed

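Right ventricles of sham, F- and F+ rats were measured on 9 Affymetrix rat gene arrays. The authors deposited 1 table of signal intensities, with 1 value for each of 29215 features and each array; neither the normalization nor the scale is given in the sources used here. The methods name TRIzol and labelled cDNA, and the labels Sepasol and biotinylated cRNA. Groups were taken from the labels. The platform annotation gave 1 gene symbol to 15310 features and several to 323, and did not list 13582. By gene ID, 117 of 117 channel genes matched RefSeq, with 0 changed symbols; Kcnip1, Kcnip2 and Scn3a had 2 features, and the brighter was used.

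Log2 values of all features and arrays were modelled in limma 3.58.1 under R 4.3.3 (lmFit, contrasts.fit, eBayes), each group having its own mean; the package data.table was version 1.17.8. Benjamini-Hochberg adjustment ran over all features, at a threshold of 0.05. Tables and plots were made with Python 3.11.15, pandas 2.3.3 and matplotlib 3.10.9. The procedure was tested on simulated data. The only measure of precision for the arrays was their number. The channel genes, the lists of cell type markers, accessory genes and outward current genes, and the tests were chosen with earlier results of these data known. Genes were named as the bright and dim ones with the largest moderated statistics each way in each comparison, the main cardiac current genes, the extremes of each family and accessory genes with an unadjusted p under 0.05. Kcnma1, Scn3b, Hcn3 and Kcnj13 among others were named after their values were seen. The alternatives changed the normalization (quantiles, medians), the features tested (brighter ones, those with 1 symbol), the fit (a replicate block, separate pairs of groups, a trended robust prior), the scale (square roots), the reading of genes with several features (their mean), the bright cut (29.7) or the arrays (each left out in turn, and sham array 2 with F- array 1).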

Additional observations from a re-analysis of the deposited data

How the results depend on the processing

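No channel gene passed adjustment in any of 19 alternative fits, with a lowest adjusted p of 0.0545. The 63 differences of named genes gave 1189 values under these alternatives, of which 1182 kept their direction and 7 turned it, and 58 of the 63 kept it throughout. Those that turned when 1 array was left out were Cacna1h (-0.012 to 0.0702) and Hcn4 (-0.0511 to 0.184) between F- and sham, and Kcnd2 (-0.0788 to 0.0275) and Kcnj12 (-0.0342 to 0.0179) between F+ and F-. Scn3b between F- and sham was -0.0271 without sham array 2 and F- array 1. The cause was not tested. Counts of bright genes under the alternatives, and the bright cut from the group not compared, were added after seeing the data. With 1 array left out, genes at an unadjusted p under 0.05 numbered 8 to 16 (bright 4 to 10) for F+ against F-, 2 to 10 (bright 0 to 3) for F- against sham, 8 to 17 (bright 4 to 10) for F+ against sham and 5 to 11 (bright 1 to 4) for banded against sham. The medians of bright and dim genes then ran from -0.0391 to -0.00777 and -0.0138 to 0.0169 for F+ against F-, from -0.0202 to 0.00664 and -0.0235 to -0.0148 for F- against sham, from -0.0404 to -0.0227 and -0.0239 to -0.000935 for F+ against sham, and from -0.0321 to -0.0195 and -0.03 to -0.0124 for banded against sham. Without sham array 2 and F- array 1 together, the count for F- against sham was 3 (bright 1), and the bright counts were 11 for F+ against sham and 5 for banded against sham. On square roots, in their own unit, the medians were -0.0637 (bright, F+ against F-), -0.032 (dim, F- against sham), -0.0972 and -0.03 (bright and dim, F+ against sham), and -0.0644 and -0.0399 (bright and dim, banded against sham). The replicate numbers did not pair the arrays: correlations of same-numbered arrays were -0.205 to 0.0532, and the replicate block gave 4 genes in place of 7 for banded against sham and moved no other count by more than 1.5 times. Scn2b, Kcnk9, Kcnj13, Kcnh8 and Kcnip4 have no value with the dimmest features left out. With 3 arrays a group, small differences of single genes, and their sizes on any other scale, stay beyond these data.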
